A study of Zea mays with 6 samples.

Results

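The genes described here encode enzymes that make or turn over the osmolytes trehalose, raffinose family sugars, proline and glycine betaine in maize root tips. They were taken by name: a gene was included when its deposited name or description held trehalose, raffinose, galactinol, stachyose, pyrroline-5-carboxylate, proline dehydrogenase or betaine aldehyde. This gave 57 of the 45953 genes in the deposited table, of which 35 belong to trehalose, 11 to the raffinose family, 5 to proline and 6 to betaine. Products are named as in that table. With a mean of at least 1 FPKM (fragments per transcript length and library size), 37 of the 57 were tested, namely 22, 9, 3 and 3 in the same order.

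Compatible solutes of this kind hold water in cells and protect proteins and membranes when soil dries. In most flowering plants trehalose itself is scarce, and its precursor trehalose 6-phosphate acts as a signal of sucrose supply: trehalose-6-phosphate synthase (TPS) makes it from UDP-glucose and glucose 6-phosphate, and trehalose-6-phosphate phosphatase (TPP) removes the phosphate. Plants carry TPS proteins that are active enzymes and others for which little or no synthase activity has been found. Raffinose is built from sucrose and galactinol, proline from glutamate through pyrroline-5-carboxylate, and betaine from choline through betaine aldehyde. Maize lines differ in whether they accumulate betaine.

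Poly(A) RNA was sequenced from maize root tips as 6 libraries. Of these, 3 came from negative pressure irrigation (NPI), where the water source is kept at a pressure below that of the air and the soil pulls water out, and 3 from a group abbreviated DI. For DI the treatment label reads deficit irrigation and the sample description reads drip irrigation, and DI is used here without a choice between them. The title of the series asks how NPI restrains root growth while water use improves. The labels name no maize line, plant age or duration of irrigation, and do not say whether libraries came from separate plants, so p-values reflect how far these libraries vary, and that variation may be technical.

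Total estimated counts ran from 57792439 to 71957443 per library. The DI libraries resembled one another, with Pearson correlations of log2(FPKM + 1) across tested genes, which are not independent replicates, of 0.936 to 0.957. Those among NPI libraries were 0.814 to 0.901, and NPI-2 correlated better with each DI library (0.854 to 0.882) than with NPI-1 (0.838) or NPI-3 (0.814). Of the 68 genes with root tip names, such as root cap and scarecrow genes, 32 were tested and 13 were at 0 in every library. Most of the 68 are described as scarecrow-like and were taken by name alone. No kernel storage gene reached a mean of 1 FPKM. Of 52 genes with shoot names, such as chlorophyll-binding, photosystem and phosphoenolpyruvate carboxylase genes, 33 were tested. Their summed FPKM ran from 216 to 334 per library. In bulk tissue, fewer cells of a type and less RNA per cell cannot be told apart.

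Most TPS genes had lower values under NPI, while the TPP genes overlapped between the groups and the raffinose, proline and betaine genes were mixed. None of the 37 tested genes passed an adjusted p of 0.05 in edgeR's quasi-likelihood test, beside 0.0137% of all 21902 tested genes, with 0.00913% higher and 0.00457% lower. Of the 37, 15 had a positive and 22 a negative log2 difference, beside 54% and 46% of all tested genes. The smallest adjusted p among them was 0.0619. At an unadjusted p under 0.05, 10 were lower in NPI, beside 8.52% of all tested genes, and 2 were higher, beside 12.3%. Every NPI value lay below every DI value in 12 of the 37, beside 13.7% of all tested genes, and above in 1, beside 13%, so that 26.7% of all tested genes did not overlap in one direction or the other. The median log2 difference, NPI minus DI, was -0.36 over the 37 genes and 0.07 over all tested genes.

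DESeq2 called 7 of the 37 lower and 1 higher, beside 4.57% and 6.91% of all genes it tested. The edgeR result turned on NPI-2: without that library 5 were called lower and 2 higher, beside 5.19% and 6.65% of all tested genes. Since NPI-2 correlated better with each DI library than with NPI-1 or NPI-3, leaving it out favours a difference. Calls over all tested genes rose from 3 to 2593, so values without NPI-2 are not separate support. With the replicate number as a block, or with any other single library left out, edgeR called 0 of the 37, beside 0 to 3 of all tested genes. Genes called by DESeq2 or by edgeR without NPI-2 are named below with their values.

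Of the 21 TPS genes, 13 were tested, and 11 of the 13 had a negative log2 difference, with a median of -0.73. In 9 of the 13, the NPI and DI values did not overlap and NPI was lower, beside 13.7% of all tested genes. With any 1 library left out, 9 or 10 of the 13 had all NPI values below all DI values, beside 15.9% to 32.1% of all tested genes. With NPI-2 left out 10 did, beside 32.1%. This count cannot fall when a library is left out, since fewer values then have to be separate, so it is no check of the pattern. The summed FPKM of the class was 402, 394 and 458 in NPI-1, NPI-2 and NPI-3, and 687, 759.6 and 715 in DI-1, DI-2 and DI-3. The groups did not overlap in this sum, which averaged 418 ± 34.6 under NPI against 721 ± 36.6 under DI (SD, n = 3 each).

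**Figure D1:**
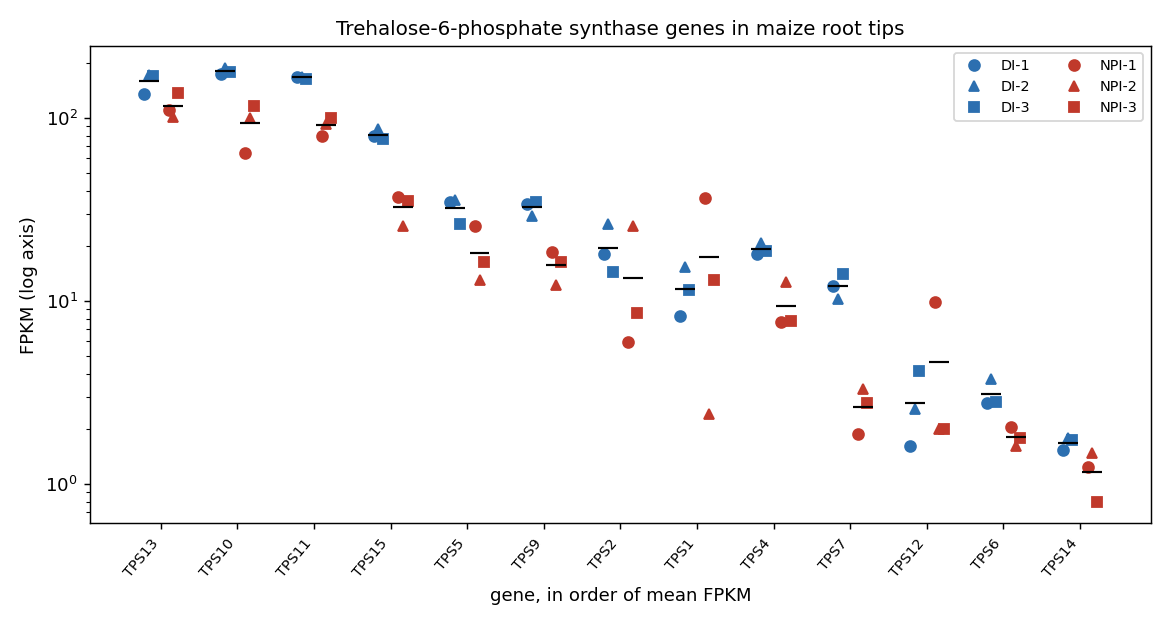
FPKM of the 13 tested TPS genes in each library on a log axis, ordered by mean; circles, triangles and squares are libraries 1, 2 and 3, and short black lines are group means. The red NPI points lie below all blue DI points for 9 genes, and TPS1 and TPS12 have higher NPI means that come from NPI-1.

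The strongest difference was in trehalose-6-phosphate synthase7 (TPS7, Zm00001d043469, chromosome 3, 201083349 to 201088576). It had 1.87, 3.3 and 2.75 FPKM in NPI-1 to NPI-3 and 12.1, 10.2 and 14 FPKM in DI-1 to DI-3. All NPI values were thus far below all DI values, and the DI mean was 4.58 times the NPI mean. The log2 difference was -2.13 (SE 0.29, edgeR adjusted p = 0.0619), with adjusted p = 2.25e-08 in DESeq2, 0.0428 in limma on log2(FPKM + 1) and 0.027 in edgeR without NPI-2. It was the 1 osmolyte gene called by limma, beside 0.63% of all tested genes called in either direction and 0.178% called lower. TPS7 was not called in edgeR with the replicate number as a block (adjusted p = 0.125). Nor was it called with any other single library left out (edgeR adjusted p = 0.0817 to 0.3).

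TPS6 (Zm00001d043468), which lies 85.9 kb from TPS7 on the same chromosome and strand, had 2.05, 1.61 and 1.78 FPKM in NPI and 2.77, 3.73 and 2.79 FPKM in DI. Its groups did not overlap either, but its log2 difference of -0.69 (SE 0.3, edgeR adjusted p = 0.244) was smaller than that of its neighbour. Counts of such near neighbours of one family may be shared between them.

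The next TPS genes by p were lower in each NPI library than in any DI library. TPS15 (Zm00001d012748, chromosome 8, 179664693 to 179669878) had 36.9, 25.7 and 35.3 FPKM in NPI and 79.2, 87 and 76.8 FPKM in DI, a log2 difference of -1.22 (SE 0.3, edgeR adjusted p = 0.11). TPS4 (Zm00001d032311, chromosome 1, 221831552 to 221837238) had 7.7, 12.6 and 7.75 FPKM in NPI and 17.9, 20.7 and 18.6 FPKM in DI, a log2 difference of -0.98 (SE 0.24, edgeR adjusted p = 0.108). In both, the NPI mean was under 0.5 of the DI mean. Both were called lower by DESeq2 (adjusted p = 0.00173 and 0.00393) and by edgeR without NPI-2 (adjusted p = 0.0364 and 0.0299). Neither was called by limma on log2(FPKM + 1) (adjusted p = 0.0608 and 0.1097) or by edgeR with the replicate block (adjusted p = 0.187 and 0.1785).

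TPS9 (Zm00001d050293, chromosome 4) had 18.5, 12.2 and 16.3 FPKM in NPI and 33.7, 29.1 and 34.6 FPKM in DI (log2 difference -0.97, SE 0.29, edgeR adjusted p = 0.146). TPS11 (Zm00001d018342, chromosome 5) had 79.7, 93 and 100.1 FPKM in NPI and 168, 168 and 162 FPKM in DI (log2 difference -0.8, SE 0.28, edgeR adjusted p = 0.181). DESeq2 called both lower (adjusted p = 0.0263 and 0.0199), and edgeR without NPI-2 called neither (adjusted p = 0.0641 and 0.0894). The DI libraries lay close together for TPS11, with an SD of 3.27 FPKM beside 10.4 in NPI.

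TPS13, TPS10 and TPS11 were the most abundant of the class and together held 69.4% to 71.2% of its summed FPKM in DI libraries and 63.3% to 76.9% in NPI libraries. TPS13 (Zm00001d020396, chromosome 7), the highest by the mean of all 6 libraries and in NPI but not in DI, had 111, 101 and 136 FPKM in NPI and 135, 171 and 169.6 FPKM in DI. Its groups overlapped between NPI-3 and DI-1, with a log2 difference of -0.36 (SE 0.32, edgeR adjusted p = 0.543). TPS10 (Zm00001d052060, chromosome 4) had 64.1, 99.4 and 116 FPKM in NPI and 174, 188 and 177 FPKM in DI, without overlap (log2 difference -0.87, SE 0.34, edgeR adjusted p = 0.209). In DI, TPS10 lay above TPS11 and TPS13 in every library, and the ranges of TPS11 and TPS13 overlapped, so their order did not exceed their spread. TPS15, with a DI mean of 81 ± 5.36 FPKM (SD, n = 3), stood below all 3.

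The other TPS genes of negative difference were TPS5, TPS2 and TPS14, at -0.73, -0.54 and -0.49 on the log2 scale (edgeR adjusted p = 0.276, 0.569 and 0.427). TPS5 and TPS14 did not overlap between the groups, and TPS2 did, with 25.5 FPKM in NPI-2 beside 5.99 and 8.57 in the other NPI libraries and a log2 difference of -1.25 without NPI-2.

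Just TPS1 and TPS12 had positive differences, and both rested on NPI-1. TPS1 (Zm00001d010755, chromosome 8, 126969528 to 126978127) had 36.4, 2.41 and 12.9 FPKM in NPI and 8.31, 15.2 and 11.4 FPKM in DI. Its NPI libraries thus held both the highest and the lowest value of the 6, and the log2 difference of 0.68 (SE 0.83, edgeR adjusted p = 0.675) was -0.43 without NPI-1. TPS12 (Zm00001d038728, chromosome 6) had 9.85, 2 and 2 FPKM in NPI and 1.61, 2.58 and 4.16 FPKM in DI, and its log2 difference of 0.79 (SE 0.7, edgeR adjusted p = 0.548) was -0.41 without NPI-1. Without NPI-1, all 13 tested TPS genes had negative differences.

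TPS transcripts were long, with a median 2.44 times the length of the median tested gene, and the log2 difference had a trend with transcript length. With the trend over all tested genes removed, the median log2 difference of the 13 TPS genes was -0.52 in place of -0.73, and 11 of the 13 stayed negative. The other 8 TPS genes had mean FPKM of at most 0.607, and 4 of them were at 0 in every library.

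**Figure D2:**
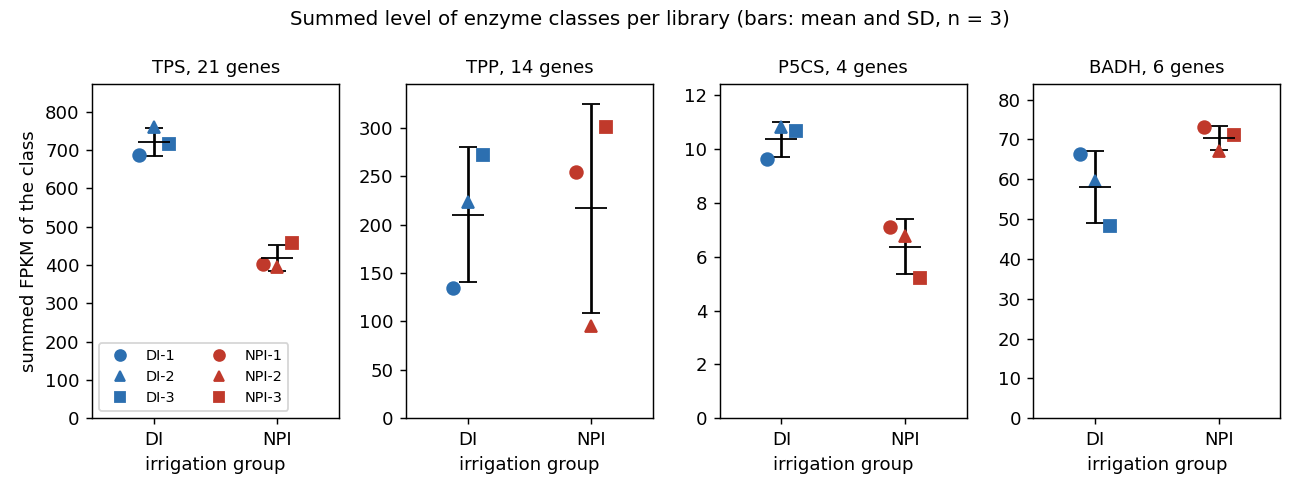
Summed FPKM per library of all TPS, TPP, P5CS (pyrroline-5-carboxylate synthase) and BADH (betaine aldehyde dehydrogenase) genes, each on its own linear axis from 0; symbols are libraries, and black bars are the mean and SD of 3 libraries. TPS and P5CS sums are lower in each NPI library than in any DI library, and the TPP sum spans 95.2 to 300.4 within NPI. BADH sums are higher in each NPI library than in any DI library, but narrowly, with 66.97 in NPI-2 beside 66.31 in DI-1.

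The TPP genes as a class did not share the direction of the TPS genes. Of 14 TPP genes 9 were tested, of which 7 had positive and 2 negative log2 differences, with a median of 0.39. The signs depended on the scale and on single libraries: 4 of the 9 were positive by limma on log2(FPKM + 1), and 4 without NPI-3. None of the 9 had NPI and DI values without overlap, beside 26.7% of all tested genes without overlap in either direction. The summed FPKM was 254, 95.2 and 300.4 in NPI and 135, 223 and 272 in DI, so that NPI-2 was the lowest of all libraries and NPI-3 the highest. The TPS and TPP sums pool all genes of each class, and which of these encode active enzymes was not tested. The ratio of summed TPS to summed TPP FPKM was 1.58, 4.14 and 1.52 in NPI and 5.09, 3.4 and 2.63 in DI. NPI-1 and NPI-3 lay below all DI libraries in this ratio, and NPI-2 lay among them.

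**Figure D3:**
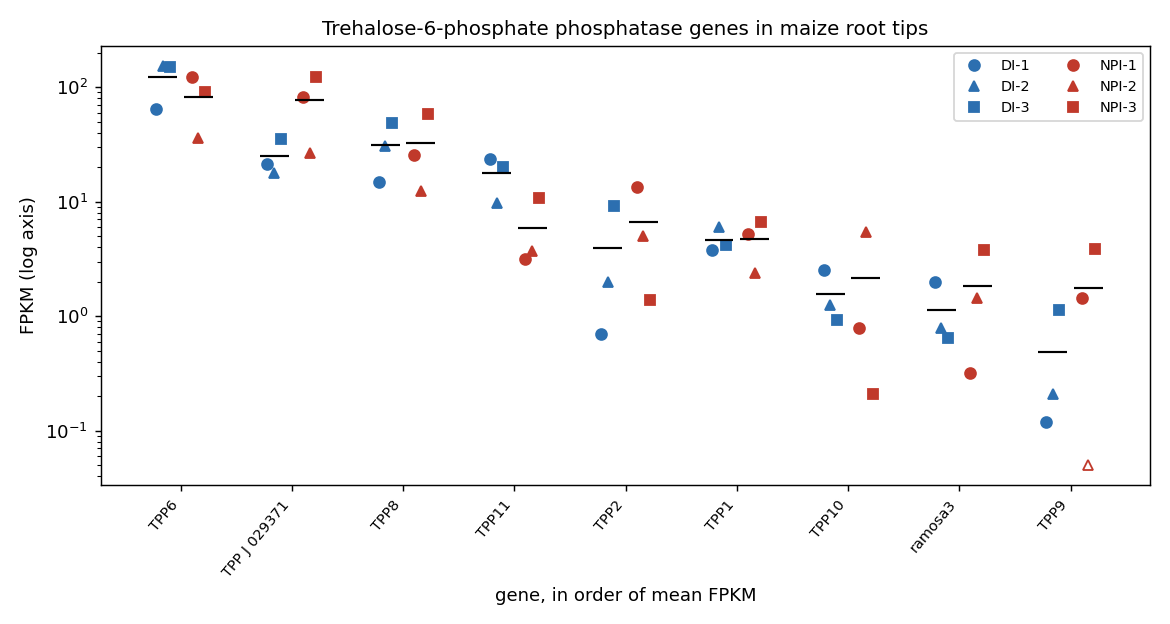
FPKM of the 9 tested TPP genes in each library on a log axis, ordered by mean; symbols and lines are as in the plot of TPS genes, and the open triangle at the bottom marks TPP9 listed at 0 in NPI-2. The groups overlap for each gene, and TPP J (Zm00001d029371) is high in NPI-1 and NPI-3 but not in NPI-2.

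Zm00001d029371 (chromosome 1, 67927389 to 67929661), described as a probable trehalose-phosphate phosphatase J, had the smallest p of the class. It had 81.6, 26.8 and 123 FPKM in NPI and 21.5, 18 and 35.4 FPKM in DI. NPI-1 and NPI-3 were above all DI libraries, and NPI-2 was not. The log2 difference was 1.75 (SE 0.62, edgeR adjusted p = 0.185), with adjusted p = 0.0389 in DESeq2, and without NPI-2 it was 2.19 (edgeR adjusted p = 0.0319). Without NPI-3 it was 1.14 (edgeR adjusted p = 0.306). As a share of the summed TPP FPKM in each library, this gene held 32.1%, 28.1% and 40.9% in NPI and 15.9%, 8.04% and 13% in DI, which did not overlap.

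TPP6 (Zm00001d017502, chromosome 5) was the most abundant phosphatase, with 122, 35.8 and 90.7 FPKM in NPI and 64.2, 154 and 151 FPKM in DI. It varied widely within both groups (log2 difference -0.46, SE 0.55, edgeR adjusted p = 0.667). TPP11 (Zm00001d047110) had 3.17, 3.72 and 10.9 FPKM in NPI and 23.8, 9.74 and 20 FPKM in DI, overlapping between NPI-3 and DI-2 alone (log2 difference -1.47, SE 0.62, edgeR adjusted p = 0.234).

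The maize gene ramosa3 (Zm00001d022193), a TPP known for its part in the branching of the inflorescence, was tested at a low level. It had 0.32, 1.43 and 3.79 FPKM in NPI and 2, 0.79 and 0.64 FPKM in DI, with overlap. Its log2 difference of 0.81 (SE 0.92, edgeR adjusted p = 0.646) was -0.42 without NPI-3. TPP9 (Zm00001d022192) lies 8 kb from it on chromosome 7 and had 1.44, 0 and 3.89 FPKM in NPI and 0.12, 0.21 and 1.13 FPKM in DI (log2 difference 2, SE 1.71, edgeR adjusted p = 0.537). Its log2 difference was 0.58 without NPI-3 and 3.54 without DI-3. TPP9 was the highest in NPI-3, as ramosa3 was, while in NPI-2 it was listed at 0 and ramosa3 was not. For TPP8, TPP2, TPP1 and TPP10 the log2 difference was 0.18, 0.77, 0.15 and 0.39, with edgeR adjusted p from 0.709 to 0.906. TPP10 (Zm00001d044854) had 0.79, 5.48 and 0.21 FPKM in NPI and 2.53, 1.25 and 0.93 FPKM in DI, and its log2 difference was -1.53 without NPI-2, -0.63 with the replicate block and -0.0424 in limma.

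Around this step, 21 tested genes were taken by name. They were matched as trehalase, enzymes that supply UDP-glucose, or parts or interacting proteins of SnRK1, the energy-sensing kinase that trehalose 6-phosphate inhibits. None passed in edgeR. At an unadjusted p under 0.05, 6 were lower and 1 was higher, beside 8.52% and 12.3% of all tested genes, and the median log2 difference was -0.19. The lower gene of smallest p, which was also the most abundant, is described as the regulatory subunit gamma-1 of this kinase (Zm00001d004006), with 115 ± 21.7 FPKM under NPI against 279.6 ± 73.1 under DI (SD over 3 libraries; log2 difference -1.22, adjusted p = 0.13 by edgeR). The gene of smallest p in the other direction, Zm00001d031520, described as the regulatory subunit beta-3, had 40.2 ± 3.79 and 27.2 ± 2 FPKM (SD over 3 libraries; log2 difference 0.62, adjusted p = 0.184 by edgeR). DESeq2 called 5 of the 21 lower and 0 higher, beside 4.57% and 6.91% of all genes it tested. Trehalase1 (Zm00001d029654), which splits trehalose into glucose, had 5.08 and 5.38 FPKM on average in NPI and DI (log2 difference 0, edgeR adjusted p = 0.999). One gene of this list, Switch/sucrose nonfermenting 3C, is named for a chromatin remodelling complex and was caught by the pattern alone.

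No raffinose family gene passed in edgeR. Of 11 genes 9 were tested, 4 with positive and 5 with negative log2 differences, and a median of -0.36. Galactinol synthase3 (GolS3, Zm00001d047582, chromosome 9, 136350922 to 136352658) makes galactinol, the galactose donor of the pathway. It had 2.86, 9.68 and 7.45 FPKM in NPI and 2.65, 4.54 and 2.54 FPKM in DI. NPI-2 and NPI-3 were above all DI libraries, and NPI-1 was not (log2 difference 1.1, SE 0.49, edgeR adjusted p = 0.259). Galactinol synthase1 was not tested, at a mean of 0.942 FPKM, and a gene described as galactinol synthase 4 was at 0 throughout.

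**Figure D4:**
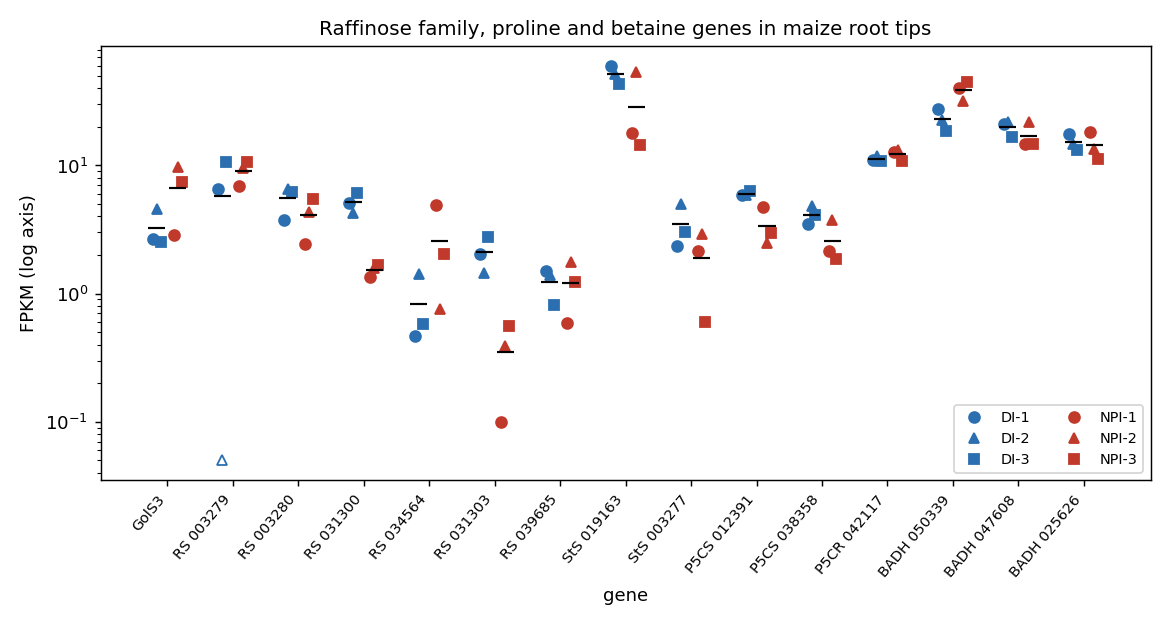
FPKM of the 15 tested raffinose family, proline and betaine genes in each library on a log axis, ordered by enzyme; GolS is galactinol synthase, RS raffinose synthase, StS stachyose synthase, P5CR pyrroline-5-carboxylate reductase, and numbers are the last digits of gene identifiers. The open triangle marks Zm00001d003279 listed at 0 in DI-2; NPI lies below DI for the raffinose synthase pair on chromosome 1 and for 1 P5CS gene, and above DI for the most abundant BADH gene.

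Raffinose synthase transfers galactose from galactinol to sucrose. All 6 genes described as probable galactinol--sucrose galactosyltransferase 1, 2 or 5 were tested. They are called raffinose synthase here by that description alone, and their activity was not tested. The lower values belonged to a pair on chromosome 1, 107.4 kb apart, both described as probable galactinol--sucrose galactosyltransferase 1. Zm00001d031300 (185589046 to 185592963) had 1.35, 1.57 and 1.66 FPKM in NPI and 5.13, 4.25 and 6.09 FPKM in DI. Zm00001d031303 (185700379 to 185710906) had 0.1, 0.39 and 0.56 FPKM in NPI and 2.05, 1.46 and 2.77 FPKM in DI. Neither overlapped between the groups, and the DI means were 3.38 and 5.98 times the NPI means.

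The log2 differences of the pair were -1.69 (SE 0.32, edgeR adjusted p = 0.0773) and -2.47 (SE 0.67, edgeR adjusted p = 0.13). DESeq2 called both lower (adjusted p = 4.25e-05 and 0.00561), and edgeR without NPI-2 called the former (adjusted p = 0.0375) but not the latter (0.0908). Without NPI-3 the log2 difference of Zm00001d031303 was -3.07. Zm00001d031300 held 22.4% to 28.1% of the summed raffinose synthase FPKM in DI libraries and 7.68% to 8.51% in NPI libraries. Counts of the pair may be shared, since the genes are alike in name and close together.

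The raffinose synthase gene Zm00001d034564, also on chromosome 1 (296458782 to 296462896), lay the other way, with 4.89, 0.76 and 2.02 FPKM in NPI and 0.47, 1.42 and 0.58 FPKM in DI. NPI-2 fell within the DI range (log2 difference 1.74, SE 0.77, edgeR adjusted p = 0.252). Without NPI-1 the log2 difference was 0.9, and without DI-2 it was 2.34. Zm00001d039685 on chromosome 3 had 0.59, 1.77 and 1.24 FPKM in NPI and 1.5, 1.4 and 0.82 FPKM in DI, with a log2 difference of 0.01 (SE 0.51, edgeR adjusted p = 0.997) whose sign changed with the scaling.

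A run of 3 members stands close together on chromosome 2, between 38572522 and 38640054. Zm00001d003277, described as stachyose synthase, had 2.14, 2.93 and 0.6 FPKM in NPI and 2.37, 4.98 and 3.05 FPKM in DI (log2 difference -0.86, SE 0.55, edgeR adjusted p = 0.409). Zm00001d003280, a raffinose synthase, had 2.43, 4.36 and 5.43 FPKM in NPI and 3.78, 6.6 and 6.2 FPKM in DI (log2 difference -0.36, SE 0.42, edgeR adjusted p = 0.66). Both overlapped between the groups.

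The middle gene of the run, the raffinose synthase Zm00001d003279, had 6.97, 9.59 and 10.7 FPKM in NPI and 6.53, 0 and 10.7 FPKM in DI. Its deposited count was 0 in DI-2 beside 254 and 521 in DI-1 and DI-3. In DI-2 the neighbour Zm00001d003277 had its highest count, 1109. Whether counts of the run were placed differently in DI-2 was not tested. The log2 difference of Zm00001d003279 was 0.71 (SE 1.41, edgeR adjusted p = 0.808), and 0.13 without DI-2. It is counted in the raffinose median and drawn with the other tested genes, but the 0 in DI-2 makes it unsafe to read.

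Stachyose synthase adds a further galactose to raffinose. Zm00001d019163 (chromosome 7, 19750770 to 19754324), described as that enzyme, was the most abundant raffinose family gene. It had 18, 53.3 and 14.4 FPKM in NPI and 60.1, 51.3 and 43.2 FPKM in DI. NPI-1 and NPI-3 were far below all DI libraries, and NPI-2 was among them. The log2 difference was -0.86 (SE 0.45, edgeR adjusted p = 0.319), and without NPI-2 it was -1.53 (edgeR adjusted p = 0.028).

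Among 15 tested genes that feed or drain the raffinose pathway, 7 had positive and 8 negative differences, with a median log2 difference of -0.12. None passed in edgeR, and 3 were higher and 1 lower at an unadjusted p under 0.05, beside 12.3% and 8.52% of all tested genes. DESeq2 called 2 of the 15 higher and 0 lower, beside 6.91% and 4.57%. Alpha-galactosidase 2 (Zm00001d032605), of a family that removes galactose from raffinose sugars, had 189 ± 30.1 FPKM under NPI against 79 ± 5.99 under DI (SD over 3 libraries; log2 difference 1.34, adjusted p = 0.1 by edgeR, and 0.0257 without NPI-2). Inositol-3-phosphate synthase isozyme 1 (Zm00001d048201), which starts the synthesis of the inositol used for galactinol, had 14.4 ± 14.4 FPKM under NPI against 40.4 ± 4.03 under DI (SD over 3 libraries; log2 difference -1.51, adjusted p = 0.218 by edgeR, and 0.022 without NPI-2). Another gene of the same description, Zm00001d037652, lay higher in NPI, with 24.5 and 15.8 FPKM on average (log2 difference 0.69, edgeR adjusted p = 0.154). UDP-glucose 4-epimerase 4 (Zm00001d032346), an enzyme that makes UDP-galactose, had the most FPKM after alpha-galactosidase 2 in NPI and the most in DI, with 185 ± 22.1 and 152 ± 23.5 (SD over 3 libraries; adjusted p = 0.528 by edgeR).

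No proline gene passed in edgeR. Pyrroline-5-carboxylate synthase (P5CS) reduces glutamate and is regarded as the controlling enzyme. The P5CS gene Zm00001d012391 (chromosome 8, 173415190 to 173423162) had 4.74, 2.48 and 2.97 FPKM in NPI and 5.9, 5.83 and 6.32 FPKM in DI. Its groups did not overlap, with a log2 difference of -0.75 (SE 0.32, edgeR adjusted p = 0.24). The P5CS gene Zm00001d038358 on chromosome 6 had 2.15, 3.78 and 1.86 FPKM in NPI and 3.47, 4.8 and 4.13 FPKM in DI, where NPI-2 overlapped DI-1 (log2 difference -0.63, SE 0.31, edgeR adjusted p = 0.284).

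Summed over the 4 P5CS genes, FPKM was 7.12, 6.77 and 5.2 in NPI and 9.63, 10.8 and 10.7 in DI, without overlap. Of the other 2 P5CS genes, 1 was at 0 throughout, and Zm00001d019946, untested at a mean of 0.293 FPKM, lay the other way, with 0.23, 0.51 and 0.37 FPKM in NPI and 0.26, 0.18 and 0.21 FPKM in DI. P5CS transcripts, too, were long, with a median 2.37 times that of all tested genes, and the median log2 difference of the 2 tested genes was -0.69 before and -0.5 after removal of the length trend. Pyrroline-5-carboxylate reductase (P5CR, Zm00001d042117, chromosome 3, 151572267 to 151577836), which makes proline from pyrroline-5-carboxylate, had 12.7, 13.2 and 10.9 FPKM in NPI and 11.1, 11.9 and 10.9 FPKM in DI. The values of all 6 libraries lay close together (log2 difference 0.18, SE 0.2, edgeR adjusted p = 0.632).

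No gene was matched by proline dehydrogenase. The 2 genes described as proline oxidase, an older name of that enzyme, were looked up once this was seen. Zm00001d029853 had 78.1, 35.4 and 57.7 FPKM in NPI and 65.8, 82.4 and 107 FPKM in DI (log2 difference -0.49, SE 0.39, edgeR adjusted p = 0.508). Zm00001d047124 had 25, 7.11 and 10.5 FPKM in NPI and 22.6, 21.4 and 21.4 FPKM in DI (log2 difference -0.54, SE 0.47, edgeR adjusted p = 0.546). Both overlapped, with NPI-2 the lowest library in each.

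Of 14 tested genes around proline, 6 had positive and 8 negative differences, with a median log2 difference of -0.09. None passed in edgeR, and 1 was higher and 0 lower at an unadjusted p under 0.05, beside 12.3% and 8.52% of all tested genes. The higher one was the probable prolyl 4-hydroxylase 9 gene Zm00001d034124, whose kind of enzyme modifies proline within wall proteins (3.91 ± 0.685 FPKM under NPI against 2.04 ± 0.605 under DI, SD over 3 libraries; adjusted p = 0.181 by edgeR). Ornithine aminotransferase (Zm00001d033228), which links ornithine to pyrroline-5-carboxylate, had 19 and 21.5 FPKM on average in NPI and DI (edgeR adjusted p = 0.768). Among the 8 negative ones, Prolyl 4-hydroxylase 8 (Zm00001d018526) had the smallest p (8.62 and 12.5 FPKM on average, edgeR adjusted p = 0.346), and the most abundant gene of the list was the probable prolyl 4-hydroxylase 12 gene Zm00001d007765 (149.5 and 181 FPKM on average, edgeR adjusted p = 0.901). Proline transporter 2 (Zm00001d018598) had 11.3 and 10.1 (edgeR adjusted p = 0.715).

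Of 6 genes described as betaine aldehyde dehydrogenase 2 (BADH), 3 were at 0 in every library and 3 were tested. Enzymes of this kind oxidise betaine aldehyde to betaine and also act on aminoaldehydes from polyamine breakdown. Zm00001d050339 (chromosome 4, 82300133 to 82306079) had 40, 31.6 and 45.1 FPKM in NPI and 27.6, 22.8 and 18.6 FPKM in DI. It was the 1 osmolyte gene with every NPI value above every DI value, and the NPI mean was 1.7 times the DI mean. The log2 difference was 0.85 (SE 0.29, edgeR adjusted p = 0.18, and 0.0482 without NPI-2), and DESeq2 did not call it (adjusted p = 0.0902).

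The other 2 tested BADH genes overlapped between the groups. Zm00001d047608 (chromosome 9, 136965576 to 136977862) had 14.6, 22 and 14.7 FPKM in NPI and 21.2, 22 and 16.6 FPKM in DI (log2 difference -0.17, SE 0.23, edgeR adjusted p = 0.702). Zm00001d025626 (chromosome 10, 124409879 to 124415115) had 18.4, 13.4 and 11.2 FPKM in NPI and 17.5, 14.7 and 13.2 FPKM in DI (log2 difference -0.02, SE 0.27, edgeR adjusted p = 0.978). The share of Zm00001d050339 in the summed BADH FPKM was therefore 54.8%, 47.2% and 63.5% in NPI and 41.6%, 38.2% and 38.4% in DI.

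Choline monooxygenase (Zm00001d036496), the enzyme that makes betaine aldehyde from choline, stood near the limit of the test, with 1.23 FPKM in NPI and 1.1 in DI on average (edgeR adjusted p = 0.827). Of 14 tested genes of betaine and choline supply, 9 had positive and 5 negative differences, with a median log2 difference of 0.27. None passed in edgeR, and 1 was higher and 2 lower at an unadjusted p under 0.05, beside 12.3% and 8.52% of all tested genes. Probable choline kinase 2 (Zm00001d043652) had 25.4 ± 8.55 FPKM under NPI against 11 ± 2.7 under DI (SD over 3 libraries; log2 difference 1.29, adjusted p = 0.141 by edgeR). A probable ethanolamine kinase gene (Zm00001d005808) had 2.86 ± 1.08 and 6.34 ± 0.771 FPKM (SD over 3 libraries; log2 difference -1.11, adjusted p = 0.13 by edgeR). A choline-phosphate cytidylyl transferase gene (Zm00001d030131), for a step of membrane lipid synthesis, had the highest mean over all 6 libraries, but not in DI, with 37.6 ± 24.5 and 22.5 ± 8.67 FPKM (SD over 3 libraries; adjusted p = 0.463 by edgeR).

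**Figure D5:**
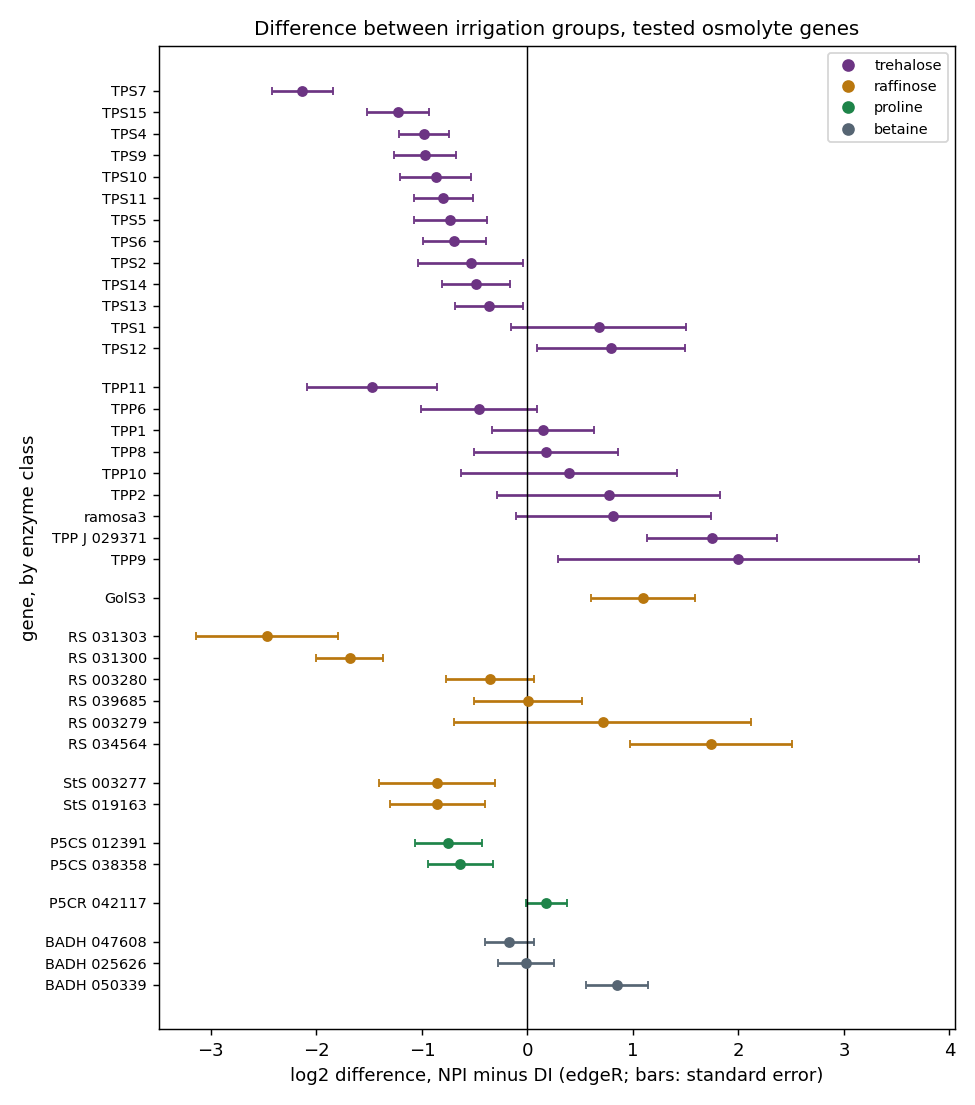
Log2 difference, NPI minus DI, of the 37 tested osmolyte genes from the edgeR fit with its standard error, grouped by enzyme class and coloured by osmolyte; the line marks 0. TPS genes reach from -2.13 to 0.79, TPP genes from -1.47 to 2 with wide errors, and none passed the adjusted threshold.

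Osmolyte genes varied more among NPI than among DI libraries. The SD of log2 CPM was larger in NPI for 34 of the 37 genes, beside 79.4% of all tested genes, and its median was 0.65 in NPI and 0.32 in DI, beside 0.57 and 0.28 over all tested genes. TPP genes were the most variable class with several members in both groups, with median SDs of 1.29 and 0.74, and TPS genes were among the least, with 0.42 and 0.18. NPI-2 stood apart for TPP genes, with a median deviation from the DI mean of -1.04 in log2 CPM, where NPI-1 had 0.18 and NPI-3 had 0.75. For TPS genes the 3 NPI libraries had medians of -0.73, -0.95 and -0.76.

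Root cap genes were low in NPI-1 and NPI-3 beside these values. Root cap protein1 (Zm00001d036091), the most abundant root tip marker, had 27.5, 115 and 38.7 FPKM in NPI and 109, 96.7 and 78.3 FPKM in DI. The root cap-specific protein gene Zm00001d045420 had 0.48, 24.9 and 0.97 FPKM in NPI and 106, 59.5 and 31.9 FPKM in DI. Neither passed in edgeR (adjusted p = 0.469 and 0.261), and both did without NPI-2 (adjusted p = 0.0405 and 0.022). In that setting, 7 of the 32 tested root tip genes were called higher and 2 lower, beside 6.65% and 5.19% of all tested genes. A further root cap-specific protein gene, Zm00001d004725, had 0, 1.2 and 0 FPKM in NPI and 12, 0.14 and 0.19 FPKM in DI. Over the whole root tip list, most of it scarecrow-like genes, the summed FPKM was 449 to 509.5 in NPI and 433 to 477 in DI. At an unadjusted p under 0.05, 12 of 32 genes were higher and 0 lower, beside 12.3% and 8.52% of all tested genes. Scarecrow1 (Zm00001d052380), a regulator of root radial pattern, had the smallest p, with 5.77 ± 0.926 and 1.24 ± 0.551 FPKM (SD over 3 libraries; adjusted p = 0.0716 by edgeR). The part of tissue makeup in the osmolyte values was not tested.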

How the data were processed

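The authors deposited 1 table, of 45953 genes, that gives every library an estimated count and an FPKM value. The deposited estimated counts are whole and were used without rounding, and FPKM as deposited is scaled by transcript length and library size. FastQC 0.10.1, HISAT2 2.0, StringTie 1.3.4 and edgeR are named, per the submitters' processing notes. Coordinates are the table's own. The build and the strand handling are not given in the sources used here. Libraries were grouped and numbered by title. The description of DI-2 gives it the repeat number of DI-3, while its library code and title carry number 2, so its number is uncertain but its group is not.

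NPI was compared with DI by the two-sided quasi-likelihood test of edgeR 4.0.16 in R 4.3.3 with TMM factors. Genes entered at a mean of 1 FPKM or more (21902 genes), with Benjamini-Hochberg adjustment over all of them. Standard errors were obtained by dividing the absolute log2 difference by the root of F. Deviations per library use log2 CPM, prior count 1. Alternatives were DESeq2 1.42.0, limma 3.58.1, other filters and scaling, robust moderation, a replicate block, removal of a loess trend with transcript length (count over FPKM), and each library left out. The edgeR fit was also run on counts simulated from its own means and dispersions. Those counts lack an outlying library and a spread that differs between groups, so the run does not test the calls made here. An exact permutation test of 3 against 3 libraries cannot go below p = 0.1 and was not used.

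Members and lists were chosen with earlier results of these data known. Values per library are given for the 5 genes of smallest p in each direction of each osmolyte, for all tested proline and betaine genes, for the most abundant gene of each enzyme and for others named after their values were seen. Of each neighbouring list, the genes of smallest p and the most abundant are named, with further ones chosen after their values were seen.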

Additional observations from a re-analysis of the deposited data

How the results depend on the processing

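The count of all genes called in edgeR was 3, and 0 osmolyte genes were called. Without a filter 18 genes were called, in DESeq2 2491, and in limma 138 with a pseudocount of 1 and 129 with 0.1. Of osmolyte genes, DESeq2 called 8 and limma 1 with either pseudocount. With single libraries left out, 0 to 2593 genes and 0 to 7 osmolyte genes were called, the upper values without NPI-2 and 0 genes without any 1 DI library. Fitted with the replicate number as a block, 1 gene and 0 osmolyte genes were called. Deviations of same-numbered libraries correlated at -0.279, 0.2 and 0.199 across genes. NPI-1 and NPI-2 did not correlate best with their own number, and NPI-3 did. Deviations centred within each group are tied to one another, so these values do not decide whether the numbers pair the libraries.

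With looser filters, under which genes of low counts were tested too, some medians moved: with edgeR's own filter the trehalose median was 0.12 and the proline median -0.23, and without a filter the proline median was -0.24. With single libraries left out, the medians ran from -0.59 to -0.32 (trehalose), -0.57 to -0.09 (raffinose), -0.75 to -0.49 (proline) and -0.0968 to 0.0994 (betaine). The counts of TPS genes were 9 to 10 without overlap and 11 to 13 negative, both added after seeing the data. The count without overlap cannot fall when a library is left out, so it is no check.

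Of the 27 genes named by the rule, 22 kept their direction under all 15 alternatives. Zm00001d039685, near 0, turned to -0.0037 (DESeq2 size factors), -0.0025 (no filter), -0.0033 (DESeq2), -0.0488 and -0.12 (limma) and -0.0526 (block), and ran from -0.26 to 0.33 with libraries left out. Zm00001d025626 turned to 0.0081 without the length trend and ran from -0.25 to 0.0994. TPS1 turned to -0.0265 and -0.11 in limma and ran from -0.43 to 1.2. TPS12 ran from -0.41 to 1.23 and ramosa3 from -0.42 to 1.49.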

Other observations

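Markers of drying did not share 1 direction beside the osmolyte genes. Of 123 dehydrin, late embryogenesis abundant (LEA) and abscisic acid genes, 42 were tested, of which 27 had positive and 15 negative log2 differences, beside 54% and 46% of all tested genes, with a median of 0.56. At an unadjusted p under 0.05, 8 were higher and 3 lower, beside 12.3% and 8.52% of all tested genes, and none passed in edgeR (smallest adjusted p = 0.0783). The gene of smallest p, Zm00001d028522, an LEA hydroxyproline-rich glycoprotein gene, had 11.3 ± 1.34 FPKM under NPI against 2.89 ± 1.23 under DI (SD over 3 libraries), and dehydrin13 (Zm00001d033483), the most abundant, had 1602 ± 308 and 2150.03 ± 409 (SD over 3 libraries; adjusted p = 0.56 by edgeR). Alkaline alpha galactosidase 2 (Zm00001d037480), which can act on raffinose and was missed by the patterns, had 32.7, 16.4 and 27.1 FPKM in NPI and 20.1, 16.7 and 31 FPKM in DI (edgeR adjusted p = 0.747).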
